A study of Mus musculus with 10 samples.

Results

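The 10 genes described here belong to the transforming growth factor beta (TGF-beta) pathway and its feedback, together with the Id genes that related signals induce. They are Tgfb1, Tgfbr1, Tgfbr2, Smad3, Smad7, Ski, Skil, Id1, Id2 and Id3, taken from 19938 genes measured on Affymetrix arrays. They were listed by pathway, and Skil, Id1 and Id2 also because they had moved with beads in earlier results from these arrays. The bead differences of the 10 genes are therefore given as a description, without a test. The cells were immortalized mouse macrophages, 1 TLR9KO line, which lacks Toll-like receptor 9, and 1 wild-type B6 line. Cells of both lines received β-1,3 glucan beads at 20 beads per cell for 4 h or were left unstimulated. There were 2 knockout bead arrays, 2 unstimulated knockout arrays, 3 wild-type bead arrays and 3 unstimulated wild-type arrays. Each genotype was a single line, so an effect of the knockout and a difference between the lines cannot be told apart. The sources used here do not give how the cells were immortalized or how TLR9 was deleted. The measurements come from bulk RNA, in which fewer cells of a type and less RNA per cell cannot be told apart.

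TGF-beta 1 binds the receptor TGFBR2, which recruits and phosphorylates TGFBR1, and the activated receptor phosphorylates SMAD2 and SMAD3. These enter the nucleus with SMAD4 and regulate transcription. The pathway switches on its own inhibitors, among them the inhibitory SMAD7, which blocks the receptor, and SKIL (SnoN), which with the related SKI represses SMAD target genes. Bone morphogenetic proteins (BMPs) act through SMAD1 and SMAD5 and are known inducers of the Id genes, whose products lack a DNA-binding region and hold E proteins away from DNA. Macrophages make TGF-beta 1 and respond to it, and β-glucan particles are bound by their receptor Dectin-1.

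Each gene was read by 1 probe set, and all 10 lay above the 25th percentile of every array, with 8 above the median of every array. Values are log2 signals, compared between arrays for 1 gene at a time. Macrophage markers had high signals, with 7 of 12 above the 75th percentile of all 10 arrays, but Aif1 lay above the median on 1 array only. Mean marker levels were 9.68 to 9.96 in the knockout line and 9.13 to 9.60 in wild type. Group means of Csf1r, Adgre1, Itgam, Fcgr1, Spi1, Cebpb, Aif1 and Cd14 were higher in knockout, with and without beads. Mertk, Clec7a and, by little, Cd68 were lower in knockout under both treatments, and Lyz2 was nearly level. With and without beads, group means of Cd14 were 10.47 and 10.45 in knockout, against 8.05 and 7.98 in wild type. Those of Mertk were lower in knockout, at 6.08 and 6.30 against 8.02 and 7.80 in wild type, as were those of Clec7a, the Dectin-1 gene, at 7.48 and 7.75 against 8.13 and 8.05 in wild type. These levels moved with the line, and their part in the line differences below was not tested. The lists of other cell types stayed lower. All 6 granulocyte markers and 4 of 5 lymphocyte markers were below the median of each array, while Itgax and the collagens Col1a1, Col1a2 and Col3a1 were above it on all arrays. The probe set of Tlr9 did not separate the lines (average difference 0.23 ± 0.11, SE, limma adjusted p = 0.243). Where it lies relative to the deleted part is unknown here, so it does not check the labels. Wild-type bead array 3 stood apart from its group. It correlated with the other 2 arrays at a mean r of 0.973 across genes, against 0.985 to 0.997 on the other 9 arrays. Genes with mean signals of 7 to 9 read lower there than on the other 2 arrays of the group, by a median difference of -0.36. Genes of signal 5 to 7 read higher by 0.41. Values are given with and without it where they rest on it.

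The ligand and its receptors did not separate beads from no beads in both lines. Tgfb1, the ligand, had 10.72 and 10.97 in knockout bead arrays and 11.07 and 10.70 in unstimulated knockout arrays. Wild-type arrays had 11.46, 11.41 and 10.57 with beads, against 11.50, 10.78 and 11.21 without. The groups overlapped in both lines, and the low wild-type bead value was that of array 3. The bead difference was -0.04 ± 0.32 in knockout and -0.01 ± 0.26 in wild type (SE of the fit, here and below), and 0.27 ± 0.19 in wild type without array 3. Averaged over both treatments, knockout minus wild type was -0.29 ± 0.20 and did not pass (limma adjusted p = 0.539). Without wild-type bead array 3 it was -0.44 ± 0.14 and passed (adjusted p = 0.0365).

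Tgfbr1, the type I receptor that carries the kinase acting on SMADs, had 7.98 and 8.23 in knockout bead arrays and 7.90 and 8.05 in unstimulated knockout arrays. Wild-type arrays had 8.26, 8.21 and 7.54 with beads, against 7.97, 8.12 and 7.93 without. All 4 groups overlapped, again with array 3 as the lowest value. Wild-type bead arrays 1 and 2 lay above all unstimulated wild-type arrays. For Tgfbr1 the bead difference was 0.13 ± 0.22 in knockout and 0.00 ± 0.18 in wild type, and 0.23 ± 0.10 in wild type without array 3. The average difference between the lines was 0.03 ± 0.14 (limma adjusted p = 0.985, 95% interval -0.29 to 0.36). Tgfbr2, the ligand-binding type II receptor, had 8.80 and 8.82 in knockout bead arrays and 8.99 and 9.01 in unstimulated knockout arrays. Wild-type arrays had 8.85, 8.80 and 8.62 with beads, against 8.83, 8.73 and 8.68 without. Tgfbr2 was the 1 gene of the 10 that was lower with beads in knockout without overlap (-0.19 ± 0.11), while wild-type groups overlapped. Its unstimulated knockout values lay above those of all other arrays. That difference from unstimulated wild type was 0.25 ± 0.10 and did not pass (limma adjusted p = 0.203), but it passed without wild-type bead array 3 (0.25 ± 0.08, adjusted p = 0.0452). Array 3 is in neither group compared, so the size was the same. The call then rests on the shared spread and the adjustment over all genes.

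Smad3, the signal-transducing SMAD, was flat. It had 7.67 and 7.72 in knockout bead arrays, 7.77 and 7.66 in unstimulated knockout arrays, 7.78, 7.66 and 7.51 in wild-type bead arrays and 7.82, 7.45 and 7.73 in unstimulated wild-type arrays. The difference between the lines averaged 0.04 ± 0.09 (limma adjusted p = 0.96), with a 95% interval of -0.16 to 0.25.

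Smad7, the inhibitory SMAD, was higher with beads in both lines and higher in the knockout line. It had 6.93 and 7.12 in knockout bead arrays, against 6.58 and 6.51 in unstimulated knockout arrays. In wild type it had 6.54, 6.42 and 6.54 with beads, against 6.12, 5.95 and 6.26 without. No bead array overlapped an unstimulated array of its line. The bead difference was 0.48 ± 0.12 in knockout (1.39-fold) and 0.40 ± 0.10 in wild type (1.31-fold), and 0.38 ± 0.10 in wild type without array 3. The lines differed by an average of 0.48 ± 0.08, or 1.39-fold (limma adjusted p = 0.00317). The unstimulated knockout arrays reached about the level of the wild-type bead arrays, with group means of 6.55 ± 0.04 (SD, n = 2) and 6.50 ± 0.07 (SD, n = 3). Taken by treatment, the line difference was 0.52 ± 0.11 with beads (limma adjusted p = 0.0242) and 0.44 ± 0.11 without (0.0471). The call without beads was lost on leaving out any 1 of the 10 arrays other than wild-type bead array 3 (adjusted p = 0.053 to 0.277). The call with beads was lost without knockout bead array 1 or 2, wild-type bead array 1 or 2 or unstimulated wild-type array 1 (adjusted p = 0.0503 to 0.25). The averaged difference passed in each of the 18 alternatives (adjusted p = 1.43e-04 to 0.0237).

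Ski, the corepressor after which the family is named, had 9.31 and 9.43 in knockout bead arrays, against 9.18 and 9.20 in unstimulated knockout arrays. Wild-type arrays of Ski had 9.52, 9.40 and 9.16 with beads, against 9.22, 9.03 and 9.12 without. The knockout groups did not overlap, whereas in wild type array 3 fell inside the unstimulated range. For Ski the bead difference was 0.18 ± 0.13 in knockout and 0.24 ± 0.11 in wild type, and 0.34 ± 0.09 in wild type without array 3. The lines differed by an average of 0.04 ± 0.08 (limma adjusted p = 0.959).

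Skil, which encodes the corepressor SnoN, a feedback target of TGF-beta, was the gene with the largest wild-type bead difference after Id3. It had 8.12 and 8.52 in knockout bead arrays, against 7.88 and 7.76 in unstimulated knockout arrays. Wild-type arrays of Skil had 8.26, 8.17 and 7.43 with beads, against 7.09, 7.25 and 7.20 without. All bead arrays lay above the unstimulated arrays of their line, array 3 by the smallest margin. For Skil the bead difference was 0.50 ± 0.25 in knockout (1.41-fold) and 0.78 ± 0.21 in wild type (1.71-fold), and 1.04 ± 0.12 in wild type without array 3 (2.06-fold). The groups ordered as knockout with beads, wild type with beads, unstimulated knockout and unstimulated wild type, and neighbours among the first 3 overlapped. By treatment, the Skil line difference was 0.64 ± 0.23 without beads and 0.37 ± 0.23 with beads. Without wild-type bead array 3 the value with beads was 0.10 ± 0.13. The average line difference of 0.50 ± 0.16 did not pass (limma adjusted p = 0.0746). It passed after centring on the 75th percentile (0.54, adjusted p = 0.0137) and after quantile normalisation (0.55, adjusted p = 0.00742). With array weights it was 0.39, and with wild-type bead array 1 or 3 left out it was 0.58 or 0.37. These values are given without a p, because the treatments of the line are then unequal in weight or number. Each value then draws on the bead response that chose Skil.

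**Figure D1:**
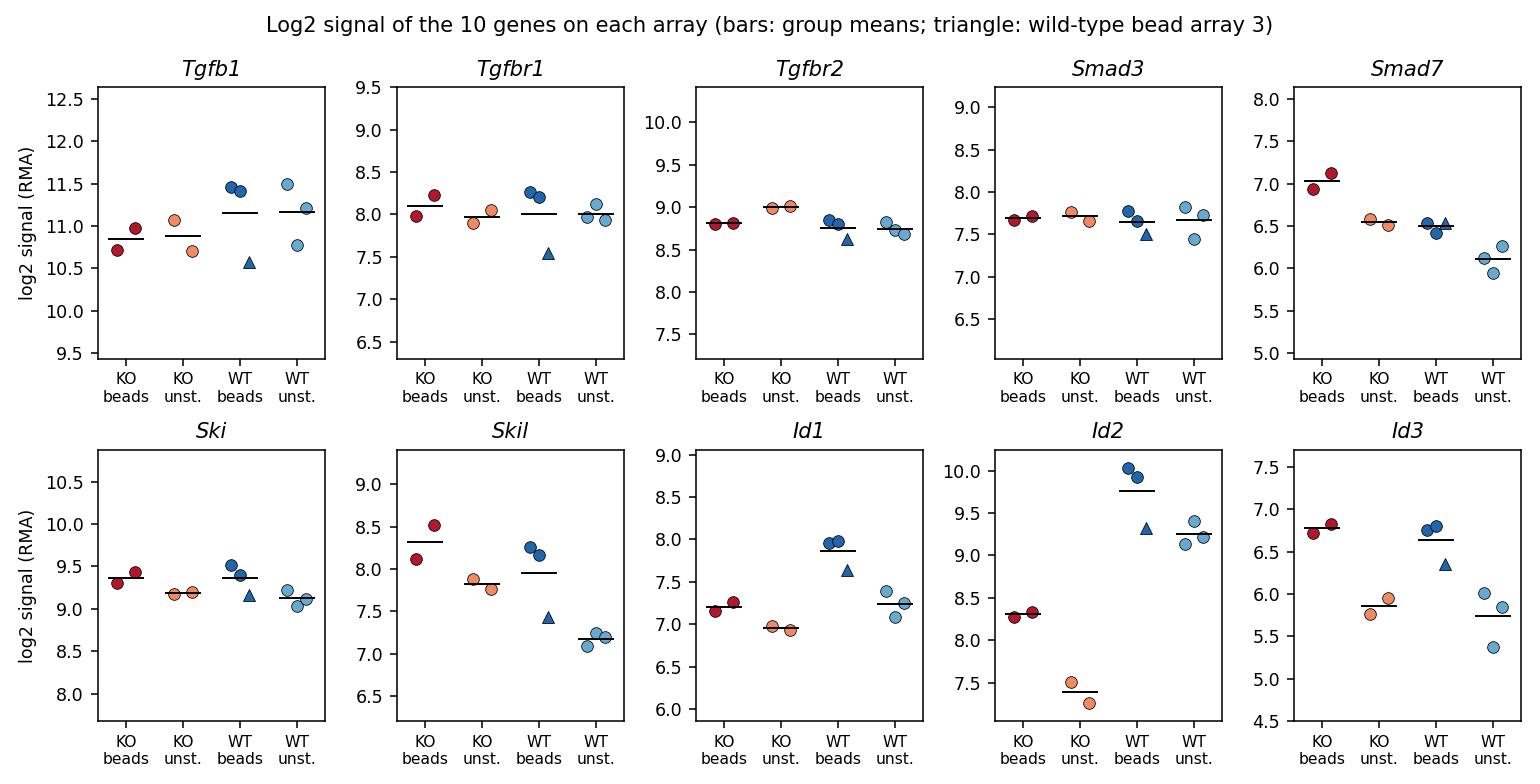
Log2 signal (RMA, y axis, panels of equal span) of the 10 genes on each of the 10 arrays, by group, where KO is the knockout line, WT the wild-type line and unst. unstimulated. Points are arrays, horizontal bars group means and triangles wild-type bead array 3. Smad7, Skil, Id1 and Id3 were higher on every bead array than on the unstimulated arrays of the same line, and Id2 was lower on every knockout array than on any wild-type array.

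The Id genes differed from each other in how they related to line. Id1, an inhibitor of E proteins, had 7.15 and 7.26 in knockout bead arrays, against 6.98 and 6.93 in unstimulated knockout arrays. Wild-type arrays of Id1 had 7.96, 7.98 and 7.64 with beads, against 7.39, 7.09 and 7.25 without. Bead and unstimulated arrays did not overlap in either line, and the knockout bead arrays lay within the range of unstimulated wild type. The bead difference was 0.25 ± 0.15 in knockout (1.19-fold) and 0.62 ± 0.12 in wild type (1.53-fold), and 0.73 ± 0.10 in wild type without array 3. Id1 was lower in the knockout line by an average log2 difference of -0.47 ± 0.09 (1.39-fold, limma adjusted p = 0.00771). After centring each array on its median, the call was lost (-0.51, adjusted p = 0.0629). By treatment, the Id1 line difference was -0.66 ± 0.13 with beads and -0.29 ± 0.13 without, the latter with a 95% interval of -0.59 to 0.01.

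Id2, which also restrains E proteins and is known in dendritic and innate lymphoid cell development, had the largest line difference of the 10. It had 8.28 and 8.33 in knockout bead arrays, against 7.51 and 7.26 in unstimulated knockout arrays. Wild-type arrays of Id2 had 10.03, 9.93 and 9.32 with beads, against 9.14, 9.41 and 9.22 without. Every knockout array lay below every wild-type array, as for 7.88% of all genes. Id2 was 3.16-fold lower in the knockout line on average (log2 difference -1.66 ± 0.14, limma adjusted p = 4.61e-05), with -1.45 ± 0.20 with beads and -1.87 ± 0.20 without. The bead difference was 0.91 ± 0.22 in knockout (1.88-fold), without overlap. In wild type it was 0.50 ± 0.18 (1.41-fold) with array 3 inside the unstimulated range, and 0.72 ± 0.11 without that array.

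Id3 had 6.72 and 6.83 in knockout bead arrays, against 5.77 and 5.95 in unstimulated knockout arrays. In wild type it had 6.76, 6.80 and 6.36 with beads, against 6.01, 5.37 and 5.85 without. Bead and unstimulated arrays did not overlap in either line, and both lines covered about the same levels. For Id3 the bead difference was 0.92 ± 0.22 in knockout (1.89-fold) and 0.90 ± 0.18 in wild type (1.86-fold), and 1.04 ± 0.16 in wild type without array 3 (2.05-fold). The average line difference was 0.12 ± 0.14 (limma adjusted p = 0.831, 95% interval -0.19 to 0.44). Of the 3 Id genes, then, Id1 and Id2 were lower in the knockout line on average, and for Id3 no difference was detectable with these arrays.

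Promoter sequences from RefSeq (GRCm38.p6) were matched for 7 of the 10 genes. Those of Id2 and Id3 are shown because these genes had the largest knockout bead differences but unlike line differences. Each run is the 250 bases before the annotated start, 5′ to 3′ on the gene's strand. Capitals mark CAGAC, the core of a SMAD-binding element, which reads GTCTG when it lies on the opposite strand. They also mark the GC-rich SMAD site GGCGCC, which reads alike on both strands. Id2 lies on the minus strand at chr12:25096093-25096342 and Id3 on the plus strand at chr4:136143572-136143821.
Id2: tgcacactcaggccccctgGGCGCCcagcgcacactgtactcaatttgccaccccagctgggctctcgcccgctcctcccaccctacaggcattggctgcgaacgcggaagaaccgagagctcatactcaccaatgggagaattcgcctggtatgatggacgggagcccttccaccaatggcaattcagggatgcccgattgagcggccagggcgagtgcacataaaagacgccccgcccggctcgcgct
Id3: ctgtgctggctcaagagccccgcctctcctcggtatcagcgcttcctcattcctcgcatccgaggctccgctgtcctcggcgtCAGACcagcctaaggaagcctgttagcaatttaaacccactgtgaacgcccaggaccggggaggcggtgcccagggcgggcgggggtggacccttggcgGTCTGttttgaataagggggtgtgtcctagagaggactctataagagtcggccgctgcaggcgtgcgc
The Id2 window held 1 GC-rich site, which begins 231 bases before the start, and 0 copies of the SMAD-binding core. The Id3 window held 2 copies of the core, 1 on each strand, beginning 167 and 68 bases before the start, and 0 GC-rich sites. The core of the cyclic AMP response element, TGACG, was found 1 time in Id3, on the opposite strand at 170 bases and overlapping the first SMAD-binding core, and 0 times in Id2. Of 32851 RefSeq promoter windows of this length, 42.2% held the SMAD-binding core, 9.59% the GC-rich site and 17.8% the cyclic AMP response core on either strand. These matches describe the letters of the windows only.

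Across the 10 genes, bead arrays lay above unstimulated arrays without overlap for 6 in the knockout line, where 13.2% of all genes did so, and for 4 in the wild-type line, where 2.29% did. The 4 were Smad7, Skil, Id1 and Id3, which were higher in both lines, as were 0.597% of all genes. Because Skil and Id1 were listed for their bead response, and the comparison is the one behind the list, nothing is read from these shares. In knockout, 1 of 10 (Tgfbr2) was lower without overlap, against 11.2% of all genes, and in wild type 0 of 10 were, against 1.24%. In the limma test over all genes, 0 genes (0%) passed for beads in either line. At an unadjusted p under 0.05 there were 359 genes (1.8%) in knockout and 167 (0.838%) in wild type. Without any effect, a share of about 0.05 of all genes would fall there, so both shares were low. The 0 passing genes therefore do not show that beads had no effect. Without wild-type bead array 3, 17 genes (0.0853%) passed for beads in knockout and 0 in wild type, with 910 (4.56%) and 2293 (11.5%) at an unadjusted p under 0.05.

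**Figure D2:**
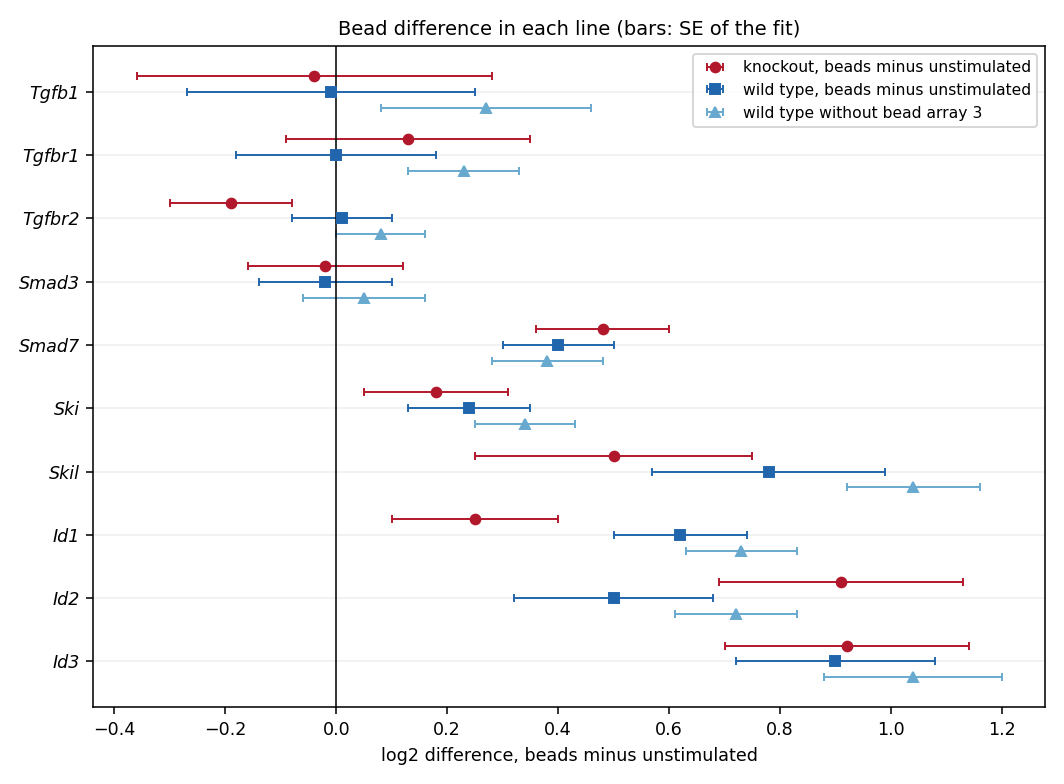
Log2 difference between bead and unstimulated arrays (x axis) for each of the 10 genes (y axis), in knockout (2 against 2 arrays), in wild type (3 against 3) and in wild type without bead array 3. Points are fitted differences and bars their SE. Id3 lay at 0.92 in knockout and 0.90 in wild type, and Tgfb1, Tgfbr1 and Smad3 lay within about 1 SE of 0 in both fits with all arrays. In wild type without bead array 3, Tgfb1 lay at 0.27 ± 0.19, Tgfbr1 at 0.23 ± 0.10 and Smad3 at 0.05 ± 0.11.

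The study's design asks whether the bead response differs between the lines. For the 7 genes not chosen on their bead response, the knockout bead difference minus the wild-type one was tested, and 0 of 7 passed in limma (0% of all genes, with 172 genes, 0.863%, at an unadjusted p under 0.05). The values ran from -0.20 ± 0.14 for Tgfbr2 to 0.13 ± 0.29 for Tgfbr1. For Id3 the value was 0.02 ± 0.28 with a 95% interval of -0.61 to 0.65, and for Smad7 it was 0.08 ± 0.16 with an interval of -0.28 to 0.44. Neither these intervals nor the 0 passing genes show that the responses were alike. The 3 genes chosen on the bead response are given without a test: -0.28 ± 0.33 for Skil, -0.37 ± 0.19 for Id1 and 0.41 ± 0.28 for Id2. Without wild-type bead array 3 these values were -0.54 ± 0.17, -0.48 ± 0.14 and 0.19 ± 0.16.

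Between the lines, averaged over both treatments, 3 of the 10 genes passed, where 15% of all genes did. Smad7 was the 1 higher gene (6.68% of all genes were higher) and Id1 and Id2 were the 2 lower genes (8.34% were lower). For Skil, Id1 and Id2 the averaged difference would be uncorrelated with the bead differences that chose them if all arrays varied alike, since the arrays of a line are split equally over the treatments. Wild-type bead array 3 stood apart, however, and the averaged and bead differences of a gene share the same estimate of its spread. The p-values of Skil, Id1 and Id2 are therefore not fully independent of that choice. Taken by treatment, 1 of the 7 other genes passed with beads (7.22% of all genes, 3.82% higher) and 1 without (8.25%, 3.79% higher), Smad7 both times and higher. The comparison with beads rests in part on the wild-type bead arrays. Without array 3, 5 of the 10 averaged differences passed, with Skil and Tgfb1 added, where 29% of all genes passed. The treatments are unequal in number in that fit, so the added call of Skil is not independent of its choice.

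**Figure D3:**
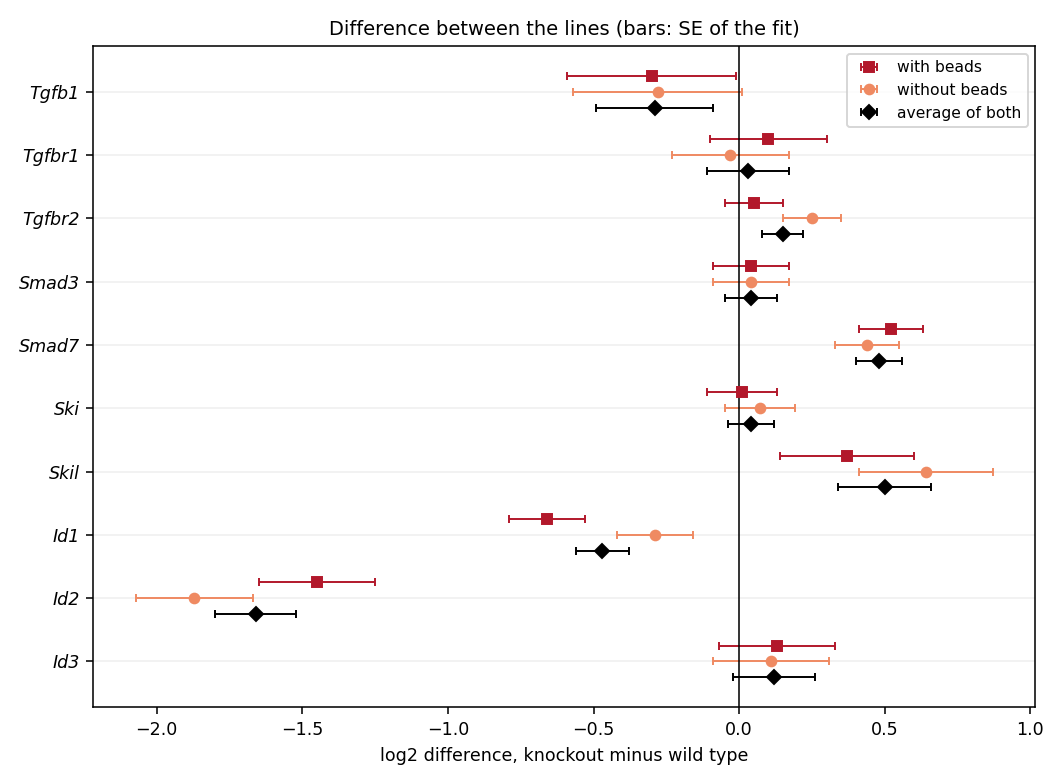
Log2 difference between the knockout and wild-type lines (x axis) for each of the 10 genes (y axis), with beads, without beads and averaged over both. Points are fitted differences and bars their SE. Id2 stood far to the left with an average of -1.66, Id1 lay at -0.47 and Smad7 at 0.48.

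After each line's mean was subtracted, the genes whose values followed Skil most closely over the 10 arrays were Mef2a (Pearson r = 0.987), a transcription factor, Tsr2 (0.981), and Gclc (0.972), the catalytic subunit of glutathione synthesis. For Id1 they were Nckipsd (0.949), Rmdn3 (0.936) and the amino acid transporter Slc43a2 (0.927). For Id2 they were Gclm (0.982), the partner subunit of Gclc, then Ikbkg (0.981), a subunit of the IκB kinase, and the membrane protein Cd109 (0.979). Without wild-type bead array 3, these 9 correlations over 9 arrays ran from 0.936 to 0.995. They are descriptions over arrays that share treatment and line, picked as the highest of all genes.

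Other genes of the pathway were taken from 5 lists with 105 of 109 listed genes measured. Averaged over both treatments, 19 were higher and 5 lower in the knockout line (22.9% passed, against 15% of all genes), and 81 did not pass. Over all genes 6.68% were higher and 8.34% lower. The median difference of the lists was 0.06, against 0.00 over all genes. Among ligands and latency factors 3 of 23 were higher and 0 lower (13% passed, against 15% of all genes). Itgav, the integrin chain that takes part in releasing TGF-beta from its latent form, had 11.04 and 11.10 with beads and 10.30 and 10.48 without beads in knockout arrays. In wild type it had 9.53, 9.53 and 9.36 with beads and 9.33, 9.59 and 9.34 without, so the lines did not overlap (1.29 ± 0.08, limma adjusted p = 6.83e-06). Furin, the protease that cleaves the TGF-beta precursor, was higher by 0.92 ± 0.08. Bmp2 differed by 0.26 ± 0.07 (adjusted p = 0.0337), but its signal was under the 25th percentile on each of the 10 arrays, and it lost its call under 11 of 17 alternatives.

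Of 17 receptors and extracellular inhibitors, 4 were higher and 0 lower (23.5% passed, against 15% of all genes). Eng, the co-receptor endoglin, had 10.30 and 10.29 with beads and 10.21 and 10.32 without in knockout arrays, against 8.93, 8.89 and 8.85 with beads and 8.92, 8.74 and 8.82 without in wild type. It was 2.68-fold higher (1.42 ± 0.06, limma adjusted p = 7.9e-07). The activin receptors Acvr2a (0.57 ± 0.11) and Acvr1 (0.46 ± 0.07), which also bind or transmit BMP signals, were higher too. Of 27 SMADs and their regulators, 3 were higher and 1 lower (14.8% passed, against 15% of all genes). Zfyve9, which encodes SARA, the anchor that presents SMADs to the receptor, had 5.37 and 5.36 with beads and 5.14 and 5.04 without in knockout arrays, against 4.02 to 4.36 in wild type. It is counted as higher (adjusted p = 2.28e-05), but it lay below the 25th percentile on all 6 wild-type arrays, so no size is given for its difference. The corepressor Tgif1 was higher by 0.59 ± 0.10 and the ubiquitin ligase Nedd4l by 0.47 ± 0.12. After median centring the calls of Tgif1 (0.56, adjusted p = 0.0627) and Acvr1 (0.43, adjusted p = 0.064) were lost. The call of Nedd4l was lost under 8 of 18 alternatives, 7 of them arrays left out.

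Among TGF-beta and BMP target genes 8 of 25 were higher and 2 lower (40% passed, against 15% of all genes). Tsc22d1, first known as a TGF-beta induced transcript, was higher by 1.18 ± 0.08 (adjusted p = 9.56e-06) and the stress-induced transcription factor Atf3 by 0.70 ± 0.08. Tsc22d1 signals in wild type were 4.94 to 5.23, near the 25th percentile and above it on 5 of 6 arrays, so the size of its difference is uncertain. Runx3, a transcription factor that works with SMADs, was lower (-1.10 ± 0.17, adjusted p = 0.00205). Of 13 E proteins and other Id partners, 1 was higher and 2 were lower (23.1% passed, against 15% of all genes). The higher gene was the ETS factor Ets2 (1.45 ± 0.13, adjusted p = 7.28e-05). The bHLH factor Lyl1 was among the lower genes (-0.55 ± 0.08, adjusted p = 0.0014).

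**Figure D4:**
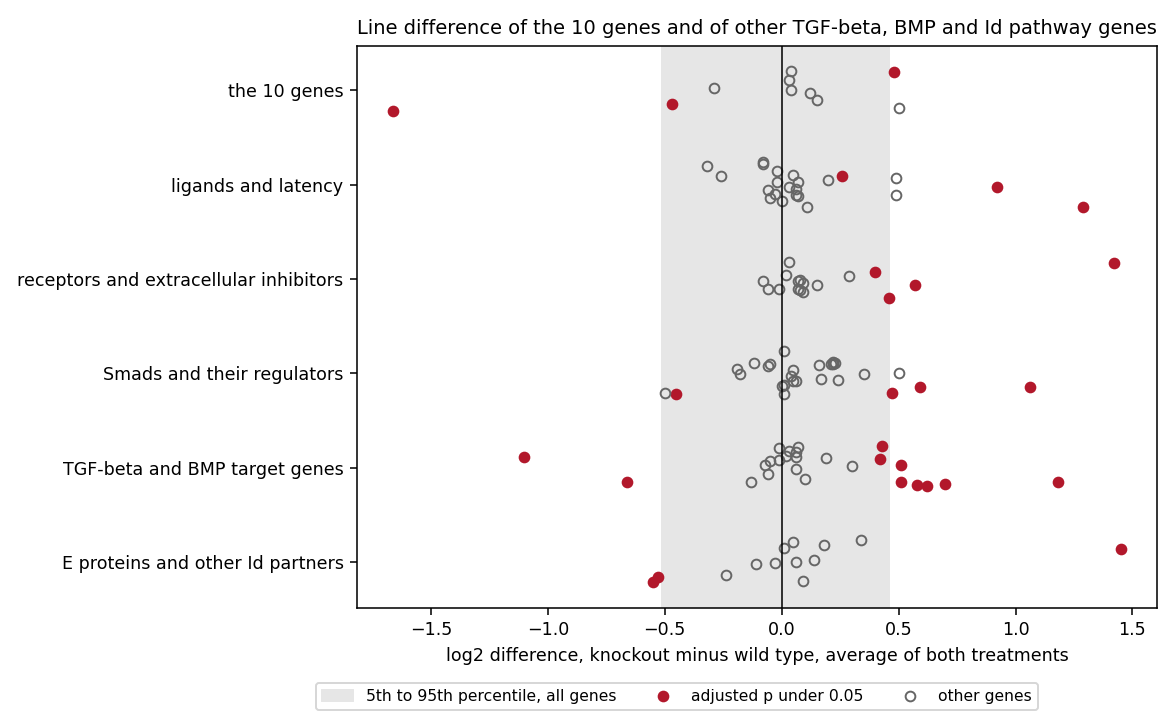
Log2 difference between the knockout and wild-type lines averaged over both treatments (x axis) for the 10 genes and for the 105 other pathway genes in 5 lists (y axis, points spread vertically for display). Filled points passed at an adjusted p under 0.05 and the grey band holds the 5th to 95th percentile of all genes (-0.51 to 0.46). Eng, Ets2 and Itgav lay furthest to the right and Id2 furthest to the left.

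For beads, 0 of the 105 pathway genes passed in limma in either line, as for all genes (0%). At an unadjusted p under 0.05 there were 6 of 105 in knockout, against 1.8% of all genes. In wild type there were 5 of 105, against 0.838% of all genes. Largest in their lists were Furin (0.78 ± 0.13), Myc (0.69 ± 0.15), Acvr1 (0.50 ± 0.11), Lyl1 (-0.33 ± 0.13) and Wwp1 (-0.28 ± 0.21) in knockout. In wild type they were Smad6 (0.49 ± 0.17), Tgfbi (0.31 ± 0.10), Rb1 (-0.27 ± 0.22), Lrrc32 (-0.20 ± 0.22) and Bmpr2 (-0.17 ± 0.15). Without wild-type bead array 3 these were 0.30, 0.39, -0.04, -0.42 and -0.02 in the same order. Furin passed in knockout without wild-type bead array 3 (0.78, adjusted p = 0.0267). That array does not enter the knockout difference, which kept its size, so the call rests on the shared spread and the adjustment over all genes. The bead arrays lay above the unstimulated arrays in both lines for 3 of the 105 (2.86%, against 0.597% of all genes), and below them for 1 (0.336% of all genes). The 3 were Smad6, Tgfbi and Junb, and the 1 was Lyl1, all named after their values were seen. Smad6 is the inhibitory SMAD of the BMP branch. It had 6.822 and 6.775 in knockout bead arrays, against 6.477 and 6.765 in unstimulated knockout arrays, so its groups were nearly touching. In wild type it had 6.773, 6.745 and 7.308 with beads, the last on array 3, against 6.620, 6.203 and 6.545 without. Tgfbi, a secreted matrix protein induced by TGF-beta, had 8.736 and 8.678 in knockout bead arrays, against 8.223 and 8.274 in unstimulated knockout arrays. In wild type Tgfbi had 8.744, 8.691 and 8.485 with beads, against 8.236, 8.426 and 8.326 without. Junb had 8.166 and 8.238 in knockout bead arrays, against 8.132 and 7.965 in unstimulated knockout arrays. In wild type Junb had 7.526, 7.531 and 7.784 with beads, against 7.413, 7.275 and 7.503 without. The Junb groups were thus nearly touching in both lines. For the difference between the bead responses, 0 of 105 passed in limma, as for all genes (0%). At an unadjusted p under 0.05 there were 4 of 105, against 0.863% of all genes. The largest in their lists were Myc (0.66 ± 0.20), Itgav (0.62 ± 0.16), Smad9 (-0.53 ± 0.29), Acvr1 (0.35 ± 0.14) and Tal1 (-0.12 ± 0.12).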

How the data were processed

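Biotin-labelled cDNA made from 100 ng of total RNA was hybridised to Affymetrix arrays, per the labels' protocols. The deposited values are log2 signals of probe sets. Per the submitters' processing notes the authors used RMA, whose version, software and filters the sources used here do not give. Array medians ran from 5.75 to 6.10, so the arrays are not centred on a common value. Of 28853 probe sets, 21789 carried 1 symbol, 1621 several and 5443 none. For 21698 the symbol was updated by Entrez ID, and the probe set with the highest mean stood for each of 19938 genes. Without detection calls, the 25th percentile of an array marked low signal.

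A model with 4 group means was fitted in limma 3.58.1 (R 4.3.3; lmFit, eBayes, 6 residual and 3.23 prior degrees of freedom), tested on simulated data. Tests were two-sided with Benjamini-Hochberg adjustment over 19938 genes and a threshold of 0.05. The number of arrays limits the precision. Whether replicate arrays stand for separate cultures is not stated, and p-values therefore reflect the spread among these arrays alone, which may be technical. The bracketed array numbers in the titles, whose meaning is not given, are lower for all knockout arrays than for wild type and, within each line, lower for bead than for unstimulated arrays. Such an order can be told apart from neither the line nor the bead treatment.

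The 10 genes, the pathway lists and the tests were chosen with earlier results of these data known. The genes named were all 10 and, per list and contrast, up to 3 with the largest difference among those that passed without overlap, or else the largest 1. The 3 genes most like Skil, Id1 and Id2 were named too, leaving out predicted genes and small RNAs. Some listed genes were not analysed here. Alternatives were other eBayes priors, 2 centrings, quantile normalisation, a filter on low signal, the mean of a gene's probe sets, array weights, fits of the compared groups alone, and each array left out.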

Additional observations from a re-analysis of the deposited data

How the results depend on the processing

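No paired analysis was possible because no replicate number in the labels is shared between groups. Leaving out a knockout array leaves 1 in its group, assumed to vary like the others. The array weights (0.0701 for wild-type bead array 3 to 12.1 for array 2 of that group) did not fully converge. The cause of the changes below was not tested. With array weights or an array left out, the treatments of a line are unequal in weight or number. The averaged calls of Skil, Id1 and Id2 counted below are then not independent of the bead response that chose them. Between the lines on average, 3 of the 10 genes passed, against 2 after median centring, 4 after 75th percentile centring or quantile normalisation, 5 with array weights and 3 to 5 with an array left out. Without beads, 1 of 7 passed, against 0 with a trended prior, either centring or the filter, 2 after quantile normalisation or with array weights, and 0 to 2 with an array left out. With beads, 1 of 7 passed, against 0 with a trended prior, either centring or a fit of those groups only, 2 by array weighting, and 0 to 1 with an array left out. The difference between the bead responses passed for 0 of 7 throughout. Pathway genes passed between the lines in 24 cases, against 14 after median centring, 37 after quantile normalisation, 45 with array weights, and 18 to 37 with an array left out. For beads they passed in 0 cases, against 63 in wild type and 2 in knockout with array weights, and 0 to 1 in knockout with an array left out. Over all genes, the 2994 that passed between the lines were 1621 to 6758 under other settings and 2033 to 5774 with an array left out. For 1439 with beads these were 480 to 6083 and 597 to 4171, and for 1645 without beads 756 to 4451 and 681 to 3668. For beads in wild type 0 became 9174 with array weights, in knockout at most 16 (17 without wild-type bead array 3), and for the difference between responses at most 9 (1 without that array).

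Differences near 0 changed sign, none of them passing in either fit. Without beads Tgfbr1 was 0.02 after 75th percentile centring, 0.03 after quantile normalisation and 0.02 with array weights, and -0.11 to 0.04 with an array left out. Smad3 there was 0.00 after median centring and -0.02 with array weights (-0.06 to 0.12 with an array left out), and Id3 ran from -0.07 to 0.25 with an array left out. With beads and array weights Tgfbr1 was -0.11, Ski -0.04 (-0.01 after median centring) and Id3 -0.02. With an array left out these ran from -0.13 to 0.23, -0.09 to 0.09 and -0.01 to 0.21, Tgfbr2 from -0.02 to 0.10 and Smad3 from -0.03 to 0.11. On average Tgfbr1 was 0.00 after median centring and -0.04 with array weights, and Id3 0.00 with array weights. With an array left out these ran from -0.08 to 0.10 and 0.03 to 0.19, and Smad3 and Ski each from -0.01 to 0.08. For the difference between responses, median centring gave 0.00 for Tgfb1 and 0.02 for Smad3, 75th percentile centring -0.01 for Id3, and array weights -0.13 for Tgfbr1, 0.04 for Smad3 and -0.03 for Id3. With an array left out Tgfb1 ran from -0.31 to 0.17, Tgfbr1 from -0.10 to 0.26, Smad3 from -0.08 to 0.11, Smad7 from -0.02 to 0.18, Ski from -0.16 to 0.02 and Id3 from -0.12 to 0.21.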
